A study of Mus musculus with 6 samples.

Results

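The genes described here are 7 markers of oligodendrocyte precursor cells: the transcription factor genes Olig1, Olig2, Sox10 and Nkx2-2, the surface receptor gene Pdgfra, the surface proteoglycan gene Cspg4, and C1ql1, which encodes a secreted protein. They were picked by name, as rows of the gene count tables, out of 42396 genes in each table, and with their levels in these control and knockdown libraries already known. RNA was sequenced from primary cultures of the ventral midbrain of wild-type mouse embryos at embryonic day 14, plated at 150000 cells per well and infected on that day with a lentivirus at a multiplicity of infection of 5. In 3 control libraries the virus carried the scramble hairpin Scr2, and in 3 knockdown libraries it carried the hairpin shRmstI against circRmst, a circular RNA of the gene Rmst, so both groups were infected and 1 hairpin stands for the knockdown. RNA was harvested at 3 days in vitro from 2 to 3 wells per condition, and per the labels 3 independent cultures were used.

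Oligodendrocyte precursors are the dividing glial cells from which the myelinating oligodendrocytes form. They arise from ventral progenitors under Hedgehog signalling, which turns on Olig2. They divide in response to platelet-derived growth factor through the receptor Pdgfra and carry the proteoglycan NG2, the product of Cspg4. Sox10 acts with the Olig proteins through the whole lineage. None of these genes marks precursors alone. Pdgfra is also used by fibroblasts of the meninges, Cspg4 by pericytes, Olig2 by other ventral progenitors, and Nkx2-2 by progenitors of serotonergic neurons.

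Counts summed over genes ran from 27248934 to 43646521 per library. CPM below are counts scaled to the size of each library, with TMM factors between 0.977 and 1.03. Rmst had 118 ± 4.85 CPM in control cultures and 106 ± 9.02 CPM in knockdown cultures (SD, n = 3 each). A count of the gene adds its linear and circular transcripts, so it does not check the knockdown. The labels name dopamine neurons as the cell type, and 12 of 12 markers of those neurons were detected, with Th, the enzyme of dopamine synthesis, at 49.9 CPM in control cultures and 49.3 CPM in the knockdown. The ribosomal RNA gene Rn28s1 ranged from 9756 CPM in knockdown replicate 3 to 45020 CPM in knockdown replicate 1. Its part in the values below was not tested.

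Each of the 7 precursor genes was present in every library, and each had a lower mean in the knockdown than in the control. The differences were modest, between 10.4% lower for Olig1 and 27.0% lower for Sox10, and none passed the test over the whole table. All 7 passed the filter on low counts. In CPM the libraries of the groups overlapped for 6 of the 7. This contrast was in view when the genes were picked, so the values are a description. Because whole cultures were sequenced, fewer precursor cells and less RNA of these genes per cell cannot be told apart.

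The transcription factor genes come first. Olig1 and Olig2 encode paired basic helix-loop-helix factors and are neighbours on chromosome 16, Olig2 from 91225550 to 91228677 and Olig1 from 91269769 to 91271939, 41.1 kb further on (GRCm38, both on the plus strand). Olig1 was at 114, 71.9 and 111 CPM in control replicates 1, 2 and 3. It was at 101, 69.1 and 95.1 CPM in knockdown replicates 1, 2 and 3. Replicate 2 was the low library in both groups, and the groups overlapped. The means were 98.9 ± 23.4 and 88.5 ± 17.1 CPM (SD, n = 3 each), a log2 fold change of -0.16 ± 0.18 (SE), whose 95% interval ran from -0.56 to 0.24.

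Olig2, the factor that ventral progenitors need to make both motor neurons and oligodendrocytes, was at 50.7, 32.5 and 51.6 CPM in control replicates 1, 2 and 3. It was at 36.8, 28.6 and 41.6 CPM in knockdown replicates 1, 2 and 3. Control replicates 1 and 3 stood above every knockdown library, while control replicate 2 lay below knockdown replicates 1 and 3. The log2 fold change was -0.33 ± 0.19 (SE), with an interval from -0.74 to 0.08. A long non-coding RNA gene, Gm52261, shares 99 bases with the end of Olig2 and had 0.904 CPM in the control, far below Olig2.

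Sox10, on chromosome 15 from 79154913 to 79164490 on the minus strand, encodes a factor of the SRY-box family that oligodendrocytes share with the neural crest. Its level was 29.4, 20.9 and 31.8 CPM in control replicates 1, 2 and 3. In knockdown replicates 1, 2 and 3 it was 20.8, 17.3 and 21.8 CPM. The knockdown libraries lay close together, and only control replicate 2 came down to their level. Of the 7 genes Sox10 had the difference farthest from 0, from 27.4 ± 5.76 to 20.0 ± 2.38 CPM (SD, n = 3 each), a log2 fold change of -0.45 ± 0.16 (SE) with an interval from -0.81 to -0.10.

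Nkx2-2 encodes a homeodomain factor of the most ventral progenitors that later times oligodendrocyte differentiation. It lies on chromosome 2 from 147176485 to 147195434 on the minus strand. It was at 28.7, 23.9 and 28.1 CPM in control replicates 1, 2 and 3, against 21.5, 22.0 and 26.6 CPM in knockdown replicates 1, 2 and 3. Knockdown replicate 3 lay above control replicate 2, so the groups overlapped in CPM. Its log2 fold change was -0.20 ± 0.13 (SE), with an interval from -0.48 to 0.08. The antisense genes Nkx2-2os, which overlaps it by 11352 bases, and 6430503K07Rik, which lies within it, were at 0.147 and 0.309 CPM in the control. How the counting treated strand is not stated in these sources, but these levels are small beside Nkx2-2.

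Among the surface genes, Pdgfra varied most from library to library. It encodes the receptor for platelet-derived growth factor A and lies on chromosome 5 from 75151322 to 75198206 on the plus strand. Its level was 64.1, 37.6 and 71.4 CPM in control replicates 1, 2 and 3. In knockdown replicates 1, 2 and 3 it was 40.5, 37.9 and 57.3 CPM. The lowest of the 6 libraries was control replicate 2 and the highest control replicate 3, a 1.90-fold range that spans the knockdown. The log2 fold change was -0.35 ± 0.22 (SE), with an interval from -0.84 to 0.14.

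Cspg4, on chromosome 9 from 56865104 to 56899870 on the plus strand, varied less than Pdgfra. It was at 22.0, 20.1 and 26.8 CPM in control replicates 1, 2 and 3, against 18.5, 19.0 and 22.7 CPM in knockdown replicates 1, 2 and 3. Knockdown replicate 3 lay above control replicates 1 and 2. The log2 fold change was -0.19 ± 0.14 (SE), with an interval from -0.50 to 0.12.

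C1ql1 encodes a secreted protein of the C1q family and lies on chromosome 11 from 102939264 to 102946716 on the minus strand. It was at 8.54, 9.78 and 8.99 CPM in control replicates 1, 2 and 3, against 6.89, 8.04 and 6.67 CPM in knockdown replicates 1, 2 and 3. In CPM it was the only one of the 7 whose groups did not overlap, with every control library above every knockdown library. In FPKM its groups overlapped, as given below. Its means were 9.10 ± 0.628 and 7.20 ± 0.735 CPM (SD, n = 3 each), and the log2 fold change was -0.34 ± 0.15 (SE) with an interval from -0.67 to -0.01. In this gene replicate 2 was the highest library of each group, the reverse of Olig1, Olig2 and Sox10.

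**Figure D1:**
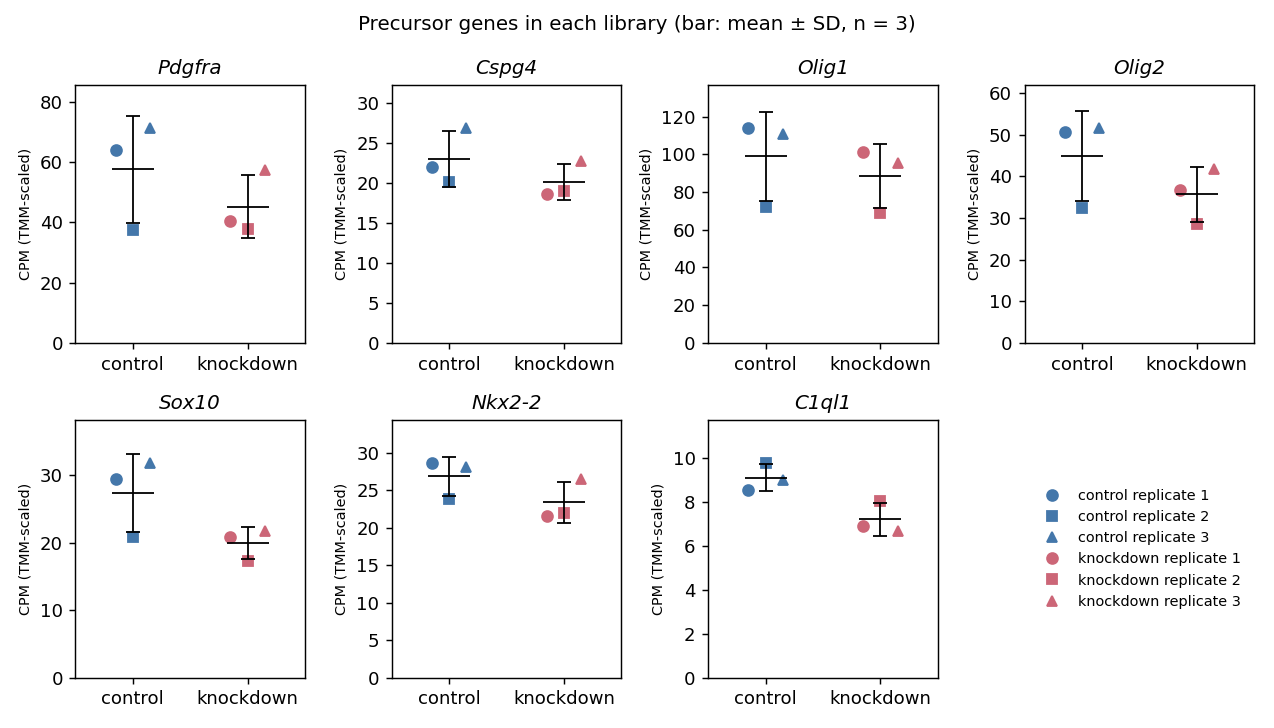
TMM-scaled CPM (vertical axes, each from 0) of the 7 precursor genes in control and knockdown cultures. Points are libraries, with the symbol giving the replicate number, and bars are mean ± SD (n = 3). Control replicate 2 lies among the knockdown libraries, or below them, for every gene but C1ql1, whose groups do not overlap.

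Read against all genes, the counts were as follows. With edgeR's quasi-likelihood test at an adjusted p under 0.05, 0 of the 7 genes were called, and 0% of the 17439 genes tested were called. At an unadjusted p under 0.05, 2 of the 7 were lower in the knockdown, Sox10 and C1ql1, against 0.717% of all genes that were lower. Groups did not overlap in CPM, with the knockdown lower, in 1 of the 7 and in 2.92% of all genes. A log2 fold change below 0 was found in 7 of the 7 and in 51.9% of all genes, and the medians were -0.33 over the 7 and -0.01 over all genes. Nothing is read from these shares, since the genes were picked with this contrast known. The median over the 7 depended on single libraries: it was -0.16 without control replicate 3, -0.20 without knockdown replicate 2 and -0.23 without control replicate 1, with 7 of 7 still below 0 each time.

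**Figure D2:**
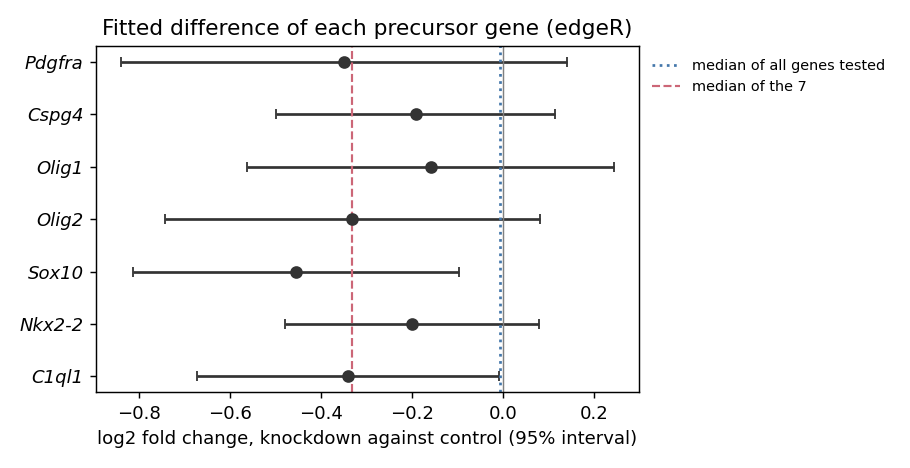
Log2 fold change of each precursor gene, knockdown against control, from edgeR, with 95% intervals on the horizontal axis. The points run from -0.45 for Sox10 to -0.16 for Olig1, the dashed line is the median of the 7 (-0.33) and the dotted line is the median of all genes tested (-0.01).

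The spread between libraries of 1 group was well above counting error for Pdgfra, Olig1, Olig2 and Sox10. Their SD was between 21.0% and 30.8% of the mean in control cultures and between 11.9% and 23.3% in the knockdown. Counting error on the lowest count of any of these 4 genes, 595 counts of Sox10, is 4.10%. C1ql1 had the fewest counts, 250 to 387 per library. There the counting error on the lowest count is 6.32%, beside a spread of 6.90% between control libraries and 10.2% between knockdown libraries. For Cspg4 the spread was 15.2% and 11.3% in the control and knockdown, against a counting error of 3.91%. For Nkx2-2 it was 9.78% and 11.9%, against 3.63%.

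Libraries were then compared by the deviation of each gene, in log2 CPM, from its own mean over the 6 libraries. The mean deviation of the 7 was 0.24, -0.15 and 0.33 in control replicates 1, 2 and 3. It was -0.15, -0.29 and 0.02 in knockdown replicates 1, 2 and 3. Control replicate 2 had the lowest control value for 6 of the 7 genes, and knockdown replicate 2 the lowest knockdown value for 4. Knockdown replicate 3 had the highest knockdown value for 5 of the 7. Control replicate 2 thus stood with the knockdown libraries, not with the other control libraries.

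**Figure D3:**
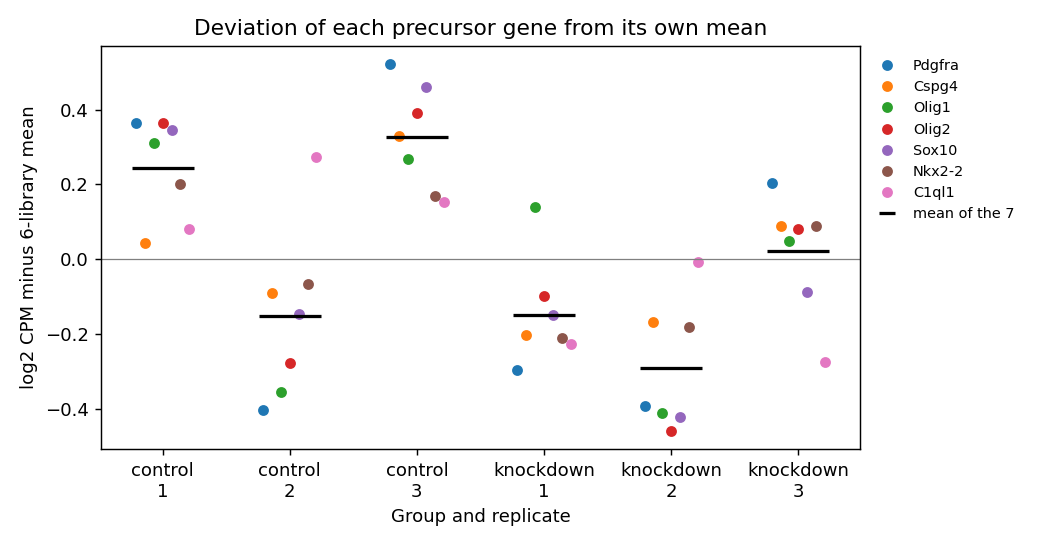
Deviation of log2 CPM from the 6-library mean of the gene (vertical axis) for the 7 precursor genes in each library (horizontal axis, group and replicate). Black bars are the mean of the 7, at 0.24, -0.15 and 0.33 for control replicates 1, 2 and 3 and -0.15, -0.29 and 0.02 for the knockdown.

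Taken by replicate number, knockdown minus control was below 0 in 20 of 21 values, the exception being Pdgfra at number 2, with 0.01 log2 units. The difference lay between -0.66 and -0.17 at number 1, between -0.28 and 0.01 at number 2, and between -0.55 and -0.08 at number 3. For 6 of the 7 genes the knockdown was lower at each number, against 10.4% of all genes tested. The choice of genes used the numbers too, so nothing is read from this. Whether libraries with the same number come from the same culture is not in the labels.

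On the FPKM scale, which divides by transcript length and so allows levels of different genes to be compared, the order was the same in both groups. Olig1 was the most abundant, at 28.7 ± 6.87 FPKM in control cultures and 25.8 ± 4.30 FPKM in knockdown cultures (SD, n = 3 each). Olig2 followed at 10.9 ± 2.51 and 8.93 ± 1.38 FPKM. Nkx2-2 was at 6.57 ± 0.492 and 5.36 ± 0.478 FPKM, Sox10 at 5.73 ± 1.22 and 4.31 ± 0.393 FPKM, and Pdgfra at 5.24 ± 1.62 and 4.16 ± 0.615 FPKM. The ranges of these 3 neighbours overlapped across libraries. In every single library, though, Nkx2-2 was above Sox10 and Pdgfra, while Sox10 and Pdgfra changed order between libraries. C1ql1 was at 3.68 ± 0.254 and 3.01 ± 0.405 FPKM, and Cspg4 was the lowest at 1.57 ± 0.250 and 1.42 ± 0.124 FPKM. Which gene had separate groups depended on the scale. In FPKM the groups of C1ql1 overlapped, with knockdown replicate 2 at 3.47 and control replicate 1 at 3.39. Those of Nkx2-2 did not, with the lowest control library at 6.02 and the highest knockdown library at 5.81 FPKM. Olig1 had a higher FPKM than 91.0% of the genes tested, and Cspg4 a higher one than 35.7%.

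Within each library Olig1 exceeded Olig2. The ratio of their FPKM was 2.71, 2.60 and 2.59 in control replicates 1, 2 and 3, while knockdown replicates 1, 2 and 3 had 3.21, 2.81 and 2.65. The knockdown values reached higher, and knockdown replicate 3 lay among the control values. Sox10 over Olig2 was at 0.506, 0.542 and 0.534 in control cultures and 0.496, 0.517 and 0.446 in the knockdown. Nkx2-2 over Olig2 was highest at replicate 2 of each group, at 0.753 in control replicate 2 and 0.726 in knockdown replicate 2, against 0.533 to 0.570 in the other 4 libraries.

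Promoter sequences are shown for Olig2, Pdgfra, Cspg4 and Nkx2-2, the 4 of the 7 with an entry in the RefSeq promoter table of GRCm38.p6. Olig1, Sox10 and C1ql1 have no entry there. Each sequence runs from 250 bases before to 50 bases after a start site of the gene, 5′ to 3′ on the gene's strand. For Olig2 and Cspg4 that site is the gene start given above. For Pdgfra and Nkx2-2 the whole window lies inside the gene positions given above, so the site is an internal one. Capitals mark E-boxes, CANNTG, the sequence class that helix-loop-helix factors such as the Olig proteins bind. The windows are chr16:91225300-91225599 (plus strand) for Olig2, chr5:75152001-75152300 (plus strand) for Pdgfra, chr9:56864854-56865153 (plus strand) for Cspg4 and chr2:147186353-147186652 (minus strand) for Nkx2-2.
Olig2: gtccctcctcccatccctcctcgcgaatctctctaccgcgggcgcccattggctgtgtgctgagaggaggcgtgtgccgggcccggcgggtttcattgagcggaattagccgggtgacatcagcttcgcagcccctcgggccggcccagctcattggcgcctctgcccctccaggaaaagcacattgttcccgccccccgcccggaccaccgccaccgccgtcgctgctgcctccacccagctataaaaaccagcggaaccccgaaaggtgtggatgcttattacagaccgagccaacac
Pdgfra: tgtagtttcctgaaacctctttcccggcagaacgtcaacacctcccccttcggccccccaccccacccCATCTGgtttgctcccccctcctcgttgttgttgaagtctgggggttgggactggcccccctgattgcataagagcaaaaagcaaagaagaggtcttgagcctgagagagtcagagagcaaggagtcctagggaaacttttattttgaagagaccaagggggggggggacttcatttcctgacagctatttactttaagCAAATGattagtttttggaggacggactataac
Cspg4: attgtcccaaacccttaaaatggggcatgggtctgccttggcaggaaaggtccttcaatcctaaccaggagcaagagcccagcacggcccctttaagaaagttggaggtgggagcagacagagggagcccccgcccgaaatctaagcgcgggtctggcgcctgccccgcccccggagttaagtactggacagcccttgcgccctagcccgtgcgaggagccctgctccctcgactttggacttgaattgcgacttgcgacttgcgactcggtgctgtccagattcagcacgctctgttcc
Nkx2-2: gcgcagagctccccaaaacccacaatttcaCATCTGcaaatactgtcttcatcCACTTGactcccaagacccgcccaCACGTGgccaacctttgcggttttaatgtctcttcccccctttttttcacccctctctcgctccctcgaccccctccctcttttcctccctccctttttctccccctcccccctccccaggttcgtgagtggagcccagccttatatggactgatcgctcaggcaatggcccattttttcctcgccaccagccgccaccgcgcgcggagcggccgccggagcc

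The Nkx2-2 window held 3 E-boxes, which begin 220, 197 and 173 bases before the start site. The Pdgfra window held 2, of which 1 begins 182 bases before the start and the other at base 18 after it. The windows of Olig2 and Cspg4 held 0. Of 32544 promoter windows of the same length, 72.3% held at least 1 E-box, counted once for both strands because the pattern is its own reverse complement. The forms CAGCTG and CATATG, which are contained in CANNTG, were in 0 of the 4 windows, in 16.4% and in 3.87% of all windows. The letters ACAAT, the core bound by SRY-box factors such as Sox10, searched on both strands, were found once each in the windows of Olig2, Cspg4 and Nkx2-2 and in 30.8% of all windows. AAGTG, the core bound by factors of the Nkx2 family, searched on both strands, was found once, in Nkx2-2, and in 46.3% of all windows. That match is on the reverse strand and lies inside the E-box CACTTG already counted. None of these motifs was in all 4 windows, and a match is only a match of letters. Their GC content was 65.0% for Olig2, 60.0% for Cspg4, 59.7% for Nkx2-2 and 51.0% for Pdgfra, against a median of 53.0% over all windows.

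Other genes of the precursor state were measured as a list of 26, which includes transcription factors that act beside Olig2 and surface proteins of precursors. Of 26 tested, 20 had a log2 fold change below 0, the median was -0.10, and 0 passed the test in either direction. Their summed level ran from 2124 to 2555 CPM in control cultures and from 2100 to 2646 CPM in the knockdown. Gpr17, a receptor of precursors that have begun to differentiate, was at 90.7, 59.8 and 106 CPM in control replicates 1, 2 and 3, against 49.3, 57.6 and 79.9 CPM in knockdown replicates 1, 2 and 3, a log2 fold change of -0.46 ± 0.21 (SE). Control replicate 2 was again the low control library and lay within the knockdown range. Sox8, the close relative of Sox10, had -0.24 ± 0.13. Ptprz1, a receptor phosphatase of precursors and radial glia and the most abundant of the list, was at 389 ± 80.5 CPM in control cultures and 375 ± 102 CPM in the knockdown.

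Genes of differentiating oligodendrocytes, the cells that precursors turn into, were tested in 19 of 23 cases. Of these 14 lay below 0 with a median of -0.21, and 0 passed. Myrf, the regulator that starts myelin gene expression, was at 17.2, 11.1 and 20.1 CPM in control replicates 1, 2 and 3, against 10.0, 8.65 and 12.6 CPM in knockdown replicates 1, 2 and 3. Bcas1, which marks newly formed oligodendrocytes, had a log2 fold change of -0.41 ± 0.19 (SE). The most abundant gene of the list, Tcf7l2, ranged from 56.9 CPM in knockdown replicate 3 to 299 CPM in control replicate 1. This transcription factor gene is also used by midbrain neurons. The genes Mog, Opalin, Mal and Aspa of mature myelin did not pass the filter on low counts. The summed level of the list ran from 493 to 854 CPM in control cultures and from 516 to 680 CPM in the knockdown. Tcf7l2 alone gave 299 of the 854 CPM in control replicate 1 and 219 of the 680 CPM in knockdown replicate 1. It thus raised the top of both ranges, and the sum does not show the library order of the other genes of the list.

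The signals that reach precursors showed no common direction. In a list of ligands and receptors of growth factors, 9 of 19 tested genes lay below 0 and 10 above, with a median of 0.0022 and 0 past the test. Pdgfa, the ligand of Pdgfra, was at 28.7 CPM in control cultures and 30.0 CPM in the knockdown. Pdgfc, another ligand of that receptor, had 0.21 ± 0.18 (SE), and the neuregulin receptor gene Erbb3 was near the limit of detection, at 0.498 and 0.863 CPM. The most abundant gene of the list, Igf1r, the receptor for insulin-like growth factor, had -0.06 ± 0.09.

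Partners and inhibitors of the Olig factors were likewise mixed. Of 23 tested, 7 lay below 0 and 16 above, with a median of 0.05, and 0 passed. Id1, an inhibitor of helix-loop-helix factors, was at 4.37 ± 0.821 CPM in control cultures and 6.01 ± 0.988 CPM in knockdown cultures (SD, n = 3 each). Hdac1, a histone deacetylase needed in the lineage, had a log2 fold change of -0.27 ± 0.12 (SE). Sox11, an early neuronal factor and the most abundant of the list, had 0.05 ± 0.14. Of 18 tested genes of ventral progenitors and Hedgehog signalling, 7 lay below 0, with a median of 0.02 and 0 past the test. There Smo, the Hedgehog signal transducer, had 0.19 ± 0.10, the Hedgehog-binding inhibitor gene Hhip had -0.44 ± 0.25, and Ptch1, the Hedgehog receptor and target and the most abundant, had -0.06 ± 0.11.

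Genes of motor and serotonergic neurons, which share ventral progenitors with the lineage, were tested in 9 of 15 cases, with 6 below 0, a median of -0.06 and 0 past the test. Mnx1, which defines motor neurons, was at 0 in every library. Fev, the serotonergic factor, had a log2 fold change of -0.35 ± 0.18 (SE), and Gata3, the most abundant, had 0.02 ± 0.11. The serotonergic genes Tph2 and Slc6a4, at 54.4 and 65.4 CPM in control cultures, had 0.02 ± 0.17 and -0.06 ± 0.21, against 10.6 CPM for Fev.

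Cells other than precursors that use these genes were looked at through their own markers. For fibroblasts of the meninges, a second source of Pdgfra, 7 of 11 tested markers lay above 0, the median was 0.07 and 0 passed. Their summed level was 172 to 181 CPM in control cultures and 146 to 203 CPM in the knockdown. The collagen genes Col1a1 and Col1a2 had log2 fold changes of 0.35 ± 0.15 and 0.20 ± 0.14 (SE), and Igfbp2, the most abundant of the list, had -0.02 ± 0.15. Markers of pericytes and smooth muscle, a second source of Cspg4, had 6 of 10 tested below 0, a median of -0.11 and 0 past the test. Their sums ran from 280.5 to 363 CPM in control cultures and from 286 to 337 CPM in the knockdown, with Vtn, the most abundant, at -0.18 ± 0.11 and Notch3 at 0.18 ± 0.11. What either cell type adds to Pdgfra or Cspg4 was not tested.

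The summed level of markers of dividing cells shared part of its library order with the precursor genes. Of 12 tested, 10 lay below 0 with a median of -0.27, and 0 passed. Their summed level was 414, 289 and 367 CPM in control replicates 1, 2 and 3, against 327, 287 and 298 CPM in knockdown replicates 1, 2 and 3. The 7 precursor genes summed to 317, 217 and 329 CPM in control cultures, and to 246, 202 and 272 CPM in the knockdown. In both sums control replicates 1 and 3 were the highest libraries, knockdown replicates 1 and 3 came next, and replicate 2 of each group was lowest. Within each group the order of replicates 1 and 3 was reversed between the sums. Single markers differed: Mki67 was at 61.9 CPM in knockdown replicate 2 and 81.4 CPM in knockdown replicate 3. Most of the list, such as Mcm5 at 21.5 and 20.0 CPM, was lowest in the knockdown at replicate 3. For 5 of the 7 precursor genes replicate 3 was the highest knockdown library. Bub1b and Mcm5, genes of the spindle checkpoint and of DNA replication, had log2 fold changes of -0.35 ± 0.13 and -0.34 ± 0.14 (SE), and Mki67, the most abundant, had -0.33 ± 0.21. The part of dividing cells in the precursor values was not tested.

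**Figure D4:**
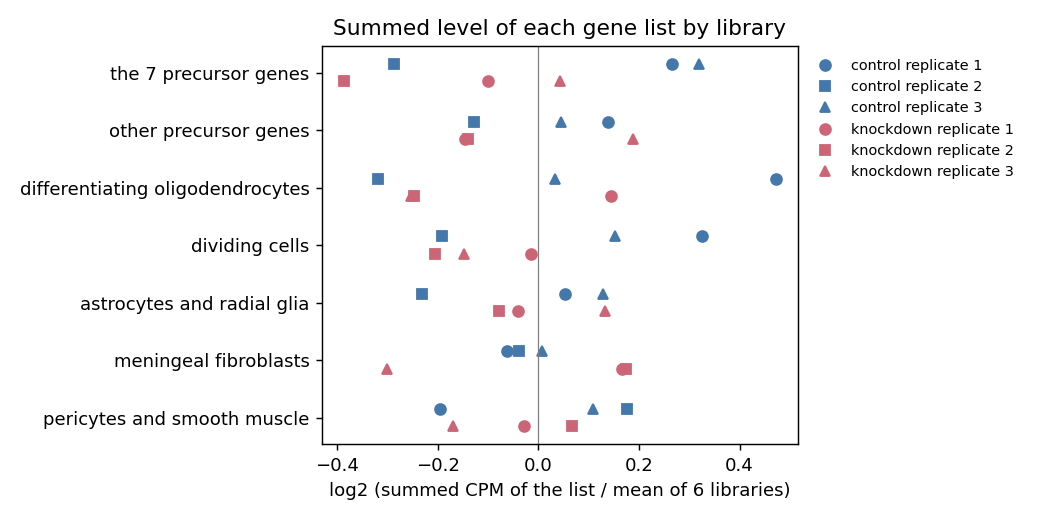
Summed CPM of the 7 precursor genes and of 6 gene lists in each library, as log2 of the ratio to the mean of the 6 libraries (horizontal axis). Colours are groups and symbols are replicate numbers. In the row of differentiating oligodendrocytes the high values of replicate 1 come largely from Tcf7l2, which midbrain neurons also use. The sums of the 7 genes and of the markers of dividing cells both place control replicates 1 and 3 highest and replicate 2 of each group lowest. Among knockdown libraries, most single markers of dividing cells were lowest in replicate 3.

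The remaining cell type lists passed no gene in either direction. Astrocytes and radial glia had 7 of 12 below 0 and a median of -0.02, with the most abundant marker Vim at 0.07 ± 0.11 (SE), Gfap at 0.37 ± 0.23 and Aldoc at 0.22 ± 0.12. Neurons had 6 of 11 below 0 and a median of -0.0029, with Tubb3, the most abundant, at 0.05 ± 0.16, Rbfox3 at -0.12 ± 0.11 and Elavl4 at -0.10 ± 0.12. Dopamine neurons had 8 of 12 below 0 and a median of -0.02, with En2 at 0.10 ± 0.11 and Lmx1a at 0.09 ± 0.14. Microglia had 6 of 8 below 0 and a median of -0.12, with the lysosomal gene Cd68 at -0.39 ± 0.16, Tmem119 at -0.87 ± 0.39 on under 1 CPM, and Aif1 at 0 in every library. Endothelial cells had 2 of 4 below 0 and a median of -0.06, with Kdr, the most abundant, at 0.01 ± 0.13, Flt1 at -0.22 ± 0.35, Tek at -0.12 ± 0.57, and Cldn5 at 0 in every library. Red blood cell genes had 4 of 4 above 0 and a median of 0.36, with Hba-a1 at 0.29 ± 0.18, Hbb-bs at 0.72 ± 0.48 and Hbb-y, an embryonic globin gene and the most abundant, at 0.12 ± 0.54. Their sums narrowly did not overlap, at 23.5 to 27.5 CPM in control cultures and 27.6 to 39.7 CPM in the knockdown. No single tested gene of that list had groups that did not overlap. The list of RNA quality had 4 of 6 below 0 and a median of -0.10, with Rmrp at 0.24 ± 0.28 and Neat1 at -0.13 ± 0.16.

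The genes whose libraries ran most like the 7 precursor genes were found by the root mean square difference, in log2 units over the 6 libraries, between their deviations and the mean deviation of the 7. Over 14494 other genes of at least 1 CPM the median difference was 0.27. The 5 smallest were 0.06 each, for Stil, Alpk1, Spag5, Sox8 and Eme1. Stil encodes a protein of centriole duplication, Spag5 one of the mitotic spindle, Eme1 part of a DNA repair nuclease, and Alpk1 a kinase that senses bacterial sugars. Sox8 also stands in the list of precursor genes above, at 54.1, 44.3 and 61.2 CPM in control replicates 1, 2 and 3, against 43.1, 43.2 and 48.9 CPM in knockdown replicates 1, 2 and 3. Stil had a log2 fold change of -0.23 ± 0.17 (SE), Spag5 -0.27 ± 0.16, Alpk1 -0.38 ± 0.28 and Eme1 -0.35 ± 0.27. Among the 7 themselves, whose values enter the mean, Nkx2-2 ranked 30 and Sox10 33 of 14501 genes, Cspg4 52, Olig2 54, Olig1 443 and Pdgfra 755. C1ql1 ranked 6964, with a difference of 0.26, close to the median of all genes.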

How the data were processed

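The deposited counts are whole numbers per gene, 1 table per library, not pooled, and the authors' genome build was GRCm38 (mm10), per the submitters' processing notes, which also name bcl2fastq 2.20, Cufflinks 2.2.1 and DESeq2. The deposited FPKM values are laid out as Cufflinks gene tables, per the file headers. No source used here gives the aligner, the counting tool or how strand was handled. Ribosomal RNA was depleted and a strand-keeping kit was used, per the labels' protocols.

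Counts were fitted with edgeR 4.0.16 in R 4.3.3 (quasi-likelihood test, filterByExpr, TMM, group alone in the design), with Benjamini-Hochberg adjustment over 17439 genes and a threshold of 0.05. The fit was checked on simulated data. Log2 CPM used a prior count of 2. No library was a duplicate: between libraries of 1 group the chi-square of counts was at least 12.8 times its degrees of freedom. Alternatives included DESeq2 1.42.0 and limma 3.58.1 (voom, and log2 FPKM with a pseudocount of 0.1 or 1). Positions come from RefSeq for GRCm38, and 7 of 7 genes had the same position in the FPKM tables. Strands come from GENCODE M21.

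The 7 genes and the lists were chosen with earlier results of these data known. Named genes are the 7, Rmst, from each list up to 2 genes with the smallest p and the most abundant, neighbours that overlap a member, and the 5 genes of the most similar pattern. Th, Pdgfa, Tph2, Slc6a4 and the genes named as undetected or below the filter were named after their values were seen. A few of the genes so chosen are not reported here.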

Additional observations from a re-analysis of the deposited data

How the results depend on the processing

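In each of 16 alternatives 7 of 7 precursor genes stayed below the control, and none was called. The smallest adjusted p over these was 0.904, for Sox10. Leaving out 1 library at a time gave a median over the 7 between -0.33 (without control replicate 2) and -0.16 (without control replicate 3). The range was -0.60 to -0.32 for Sox10, -0.57 to -0.16 for Pdgfra, -0.51 to -0.20 for Olig2, -0.33 to -0.01 for Olig1, -0.29 to -0.14 for Nkx2-2, -0.28 to -0.06 for Cspg4 and -0.43 to -0.27 for C1ql1. Olig1 was nearest to 0 without knockdown replicate 2, and Cspg4 and Pdgfra without control replicate 3.

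Over all genes edgeR called 0, with 191 at an unadjusted p under 0.05. It called 11 without the filter on low counts and DESeq2's test called 1. The other alternatives, among them leaving out each library in turn, called 0, with 131 to 1073 genes at an unadjusted p under 0.05. With the replicate block edgeR called 0 genes, and the median over the 7 was -0.32. Deviations of same-numbered libraries from their group means correlated at 0.32, 0.35 and 0.05 across genes for numbers 1, 2 and 3. Number 3 did not reach 0.1, so the numbers were not taken as pairs, and the planned test among replicate numbers, with its alternatives, was not run. With 3 libraries a group the 95% interval spans 0.29 log2 units to either side for the median gene of at least 1 CPM. For such a gene a smaller difference could not be told from 0, even without adjustment over all genes. A call at an adjusted p under 0.05 takes more: Sox10 and C1ql1 had intervals below 0 and were not called.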
